A study of Mus musculus with 21 samples.

Results

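Doxorubicin, a drug that damages DNA, was studied in CD24lo cells of the mouse small intestine by comparing 2 doxorubicin arrays with 2 untreated arrays, 4 of the 21 samples of the series. The samples were chosen by their titles, and all 4 entered the comparison. Per the labels these were TdTomato-positive cells described as Mist1+, sorted on CD24 so that dim (CD24lo) and bright (CD24hi) cells were collected separately, and each sample was hybridised to an Affymetrix mouse array after amplification of 0.8 ng of RNA. By the labels the untreated group carried the same fluorescent marker and the same gate and differed by the drug. A technical difference between the groups that goes with the drug cannot be told apart from it. CD24hi cells with doxorubicin or untreated, and CD24lo cells irradiated with 10 Gy, were used for comparison, again with 2 arrays per group. The labels give no dose, time or route for doxorubicin, no strain, allele or age, and do not say whether 2 replicates are 2 mice, so p-values measure only the spread between these samples, which may be technical. They do not give how TdTomato was switched on.

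The gene Bhlha15 encodes Mist1, a transcription factor that builds up the machinery of secretion in cells such as Paneth cells. CD24 sits on the cell surface and is plentiful on Paneth cells. The intestinal crypt holds dividing Lgr5-positive stem cells, their progenitors and Paneth cells, and the villus is lined mostly by absorptive enterocytes with goblet, enteroendocrine and tuft cells between them. Doxorubicin inserts into DNA and traps topoisomerase II, the enzyme that passes DNA strands through each other, and the breaks that follow activate p53, which induces genes of cell cycle arrest, DNA repair and cell death.

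The levels below are log2(signal + 16), on which 4 is the floor, and differences are doxorubicin minus untreated ± SE from limma with n = 2 arrays per group. P-values are adjusted over the 11854 genes tested, and a gene is said to have risen or fallen only where the adjusted p was below 0.05. The scale understates differences of dim genes, and levels of different genes cannot be compared. The median signal of the 4 arrays was between 100.7 and 149.5. The arrays of a group correlated across genes at 0.961 (untreated) and 0.979 (doxorubicin), and precision is limited by the number of arrays. The signal of the array control Cre was 23051 and 31515 untreated and 34691 and 40251 with doxorubicin. That of the control BioB was 2134 and 2823 against 3090 and 3502. Both controls were thus higher on the doxorubicin arrays without overlap, and the cause was not tested. None of the 15 pan-epithelial genes lay below a level of 7 on any of the 4 arrays. Epcam measured 12.73 and 12.99 untreated and 12.71 and 13.09 after doxorubicin. The whole intestine array of the series had all 15 above 7 too, with Cdx1 lowest at 9.59. These genes therefore cannot test the Mist1+ or CD24lo label. The sorting marker Cd24a measured 13.12 and 13.17 untreated and 13.07 and 13.12 with the drug, a difference of -0.06 ± 0.18. Bhlha15 itself was present, at 9.17 and 9.18 on the untreated arrays.

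Doxorubicin arrays differed from untreated arrays in 1747 genes, 648 higher (5.47% of those tested) and 1099 lower (9.27%), and 3712 genes had an unadjusted p below 0.05. The median difference over all genes was -0.06. Counts and medians of the gene lists below are to be read against these shares and this median. In all 648 genes that rose and all 1099 that fell the 2 groups did not overlap. Of all 11854 genes, 3104 lay higher and 4165 lower without overlap, so separate ranges add nothing to a call. The gene with the largest change was Gsdmc2, a gasdermin gene of the intestinal epithelium. It measured 10.23 and 10.36 on the untreated arrays and 4.16 and 4.61 after doxorubicin, next to the floor. The groups lay far apart, and Gsdmc2 fell by 5.91 on the log2 scale (SE 0.38, adjusted p = 3.15e-07). Among genes that rose, Cubn, the gene of cubilin, a receptor of vitamin B12 uptake, led. It measured 6.16 and 7.09 untreated and 11.18 and 11.39 with the drug, and rose by 4.66 ± 0.42 (adjusted p = 2.42e-05). Differences of 2 or more were found for 119 genes that rose and 44 that fell. Without 1 array the number of genes called was 1440 (untreated replicate 1 left out), 399 (untreated replicate 2), 394 (doxorubicin replicate 1) and 543 (doxorubicin replicate 2).

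**Figure D1:**
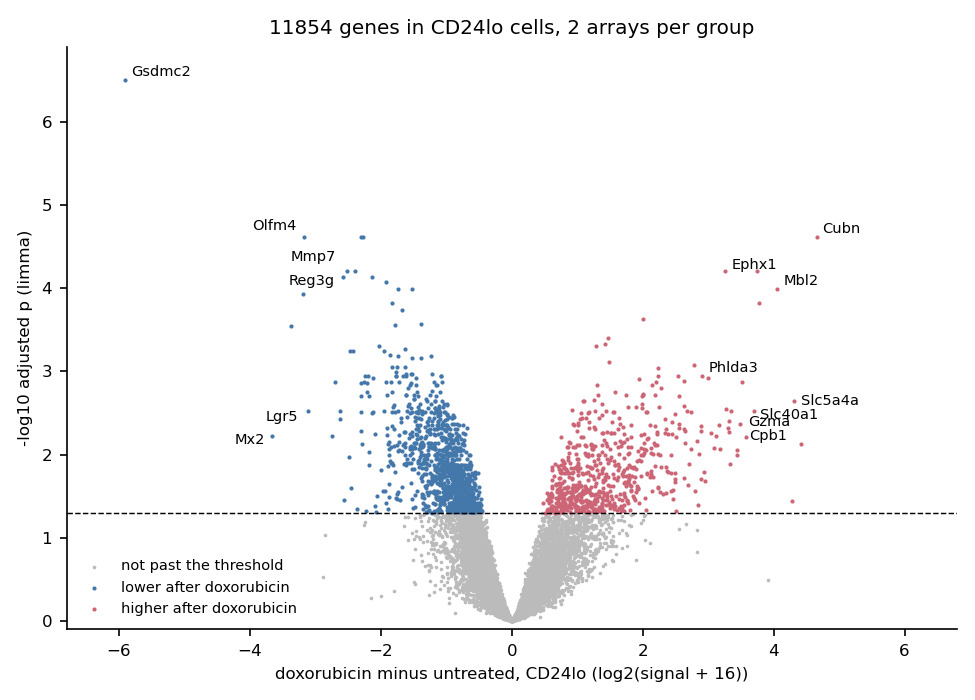
Each point is 1 of 11854 genes in CD24lo cells, with the doxorubicin minus untreated difference of log2(signal + 16) on the horizontal axis and -log10 of the adjusted p from limma on the vertical axis; the dashed line is the threshold of 0.05. Blue points are the 1099 genes that fell and red points the 648 that rose, with Gsdmc2 at -5.91 alone at the upper left and Cubn at 4.66 at the upper right.

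Other genes with large rises included transporters and enzymes. Slc5a4a and Slc5a4b, members of the family of sodium-glucose transporters, rose by 4.31 ± 0.74 and 3.52 ± 0.55. Slc5a4a measured 8.05 and 6.70 untreated and 11.62 and 11.76 after doxorubicin. Otop3, a proton channel gene, rose by 4.41 ± 0.95, from 6.57 and 4.91 to 10.14 and 10.16. The untreated arrays of both genes were spread over more than 1 unit while the doxorubicin arrays lay close together, and the groups did not overlap. Mbl2, which encodes a mannose-binding lectin, was near the floor at 4.16 on both untreated arrays and at 8.22 and 8.20 after doxorubicin, a rise of 4.05 ± 0.46. The carboxylesterase gene Ces1g rose by 3.75 ± 0.40 and Iyd, an enzyme that recovers iodide, by 3.36 ± 0.60. On the other side, Clca3b, of a family of secreted proteins of epithelia, fell by 3.19 (SE 0.37), from 13.10 and 13.19 to 10.03 and 9.87. Mptx1, a mucosal pentraxin, fell by 2.63 (SE 0.50) and Nrm, a protein of the nuclear envelope, by 2.48 (SE 0.34). The remaining genes with the largest changes were Igkv15-103, an immunoglobulin gene, at 4.28 ± 1.29, 2210010C04Rik at 3.58 ± 0.75, Nat8f5, of an acetyltransferase family, at 3.33 ± 0.80, 4933439C10Rik at -2.74 ± 0.57, Samd5 at -2.56 ± 0.77 and the chemokine receptor gene Cxcr4 at -2.49 ± 0.58. Other probe sets gave 1.20 for 2210010C04Rik, -0.96 and -0.47 for 4933439C10Rik and -0.33 for Samd5, all short of the threshold. Each of the remaining genes lost its call without at least 1 array. Igkv15-103 had an adjusted p of 0.116 to 0.226 and Nat8f5 0.0699 to 0.13 without untreated replicate 2 or either doxorubicin array, as had Cxcr4 (0.0671 to 0.1). 2210010C04Rik had 0.107 without doxorubicin replicate 1, 4933439C10Rik 0.0501 without untreated replicate 2 and 0.0593 without doxorubicin replicate 2, and Samd5 0.103, 0.133 and 0.305 without untreated replicate 1, untreated replicate 2 and doxorubicin replicate 2. Otop3 missed the threshold without untreated replicate 2 (adjusted p = 0.0895), doxorubicin replicate 1 (0.0581) or doxorubicin replicate 2 (0.0505).

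Stem cell genes were lower after doxorubicin. Of 18 tested members of the stem cell list 10 fell, with a median difference of -0.93 over the list. Olfm4, a secreted protein of crypt base cells, measured 13.43 and 13.22 on the untreated arrays and 10.33 and 9.96 on the doxorubicin arrays, and fell by 3.18 (SE 0.31, adjusted p = 2.42e-05). Lgr5, the R-spondin receptor that marks stem cells, measured 8.90 and 8.44 untreated and 6.16 and 4.96 with the drug, and fell by 3.11 (SE 0.56, adjusted p = 0.00304). Both arrays treated with doxorubicin lay below both untreated arrays for each gene, and the second probe set of Lgr5 gave -0.85 with an adjusted p of 0.13. Smoc2, a matricellular protein of the crypt base, measured 10.60 on both untreated arrays and 8.20 and 8.38 on the doxorubicin arrays, and fell by 2.31 (SE 0.22). Slc14a1, a urea transporter, fell by 1.75 (SE 0.52). In bulk samples such as these, fewer cells of a type and less RNA per cell cannot be told apart. With 1 array left out, 5 (without untreated replicate 1), 4 (without untreated replicate 2), 3 (without doxorubicin replicate 1) and 3 (without doxorubicin replicate 2) members of the list fell, with Slc14a1 losing its call in each fit (adjusted p = 0.073 to 0.189). A fit to the CD24lo arrays alone called 6 members.

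Targets of Wnt signalling, which maintains stem cells, were mixed: 6 of 18 fell and 1 rose. Besides Lgr5, the Wnt list counts Mmp7, a matrix metalloproteinase of Paneth cells that processes defensins, which fell by 2.39 (SE 0.25). Ephb3, a receptor that sorts crypt cells by position, fell by 1.31 (SE 0.43, adjusted p = 0.0493), a call that was lost in 11 of the alternatives, with adjusted p from 0.117 to 0.211 when any 1 of the 4 arrays was left out. Sp5, a transcription factor induced by Wnt, rose by 2.12 ± 0.55, from 6.27 and 4.78 to 7.83 and 7.46, and missed the threshold without untreated replicate 2 (adjusted p = 0.212), doxorubicin replicate 1 (0.132) or doxorubicin replicate 2 (0.0697). Without untreated replicate 2 or either doxorubicin array, 3 Wnt targets fell. Among reserve stem cell genes, Hopx, a marker of slowly cycling cells, differed by 0.24 ± 0.30 and Lrig1, a brake on growth factor receptors, by -0.58 ± 0.23 (adjusted p = 0.0896), short of the threshold; another Lrig1 probe set passed at -1.08.

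Genes of the cell cycle were lower across the cycle. Of 40 S phase genes 26 fell, with a median of -1.22, and of 41 genes of mitosis and the G2/M step 25 fell, with a median of -0.96, against -0.06 over all genes. Mcm5, a subunit of the helicase that opens replication origins, measured 10.88 and 11.84 untreated and 9.21 and 9.28 after doxorubicin, and fell by 2.11 (SE 0.33, adjusted p = 0.00121). Its partner Mcm2 measured 10.10 and 10.18 untreated and 8.36 and 8.38 after doxorubicin, a fall of 1.77 (SE 0.27). Both genes were lower on each drug-treated array than on each untreated array. The DNA polymerase gene Pole fell by 1.90 (SE 0.32) while Rrm1, the large subunit of ribonucleotide reductase, fell by 1.84 (SE 0.27). Of the mitosis list, Foxm1, a transcription factor of G2/M genes, fell by 2.13 (SE 0.39), Birc5 (survivin) by 1.69 (SE 0.32) and Bub1b, a kinase of the spindle checkpoint, by 1.59 (SE 0.28). The other Bub1b probe sets gave -1.30, past the threshold, and -0.99, short of it. Other probe sets of Foxm1 gave -0.75 and -0.39, short of the threshold, and without untreated replicate 2 its adjusted p was 0.05. Mki67, a proliferation marker, measured 11.81 and 11.87 untreated and 10.65 and 11.06 after doxorubicin. It fell by 0.98 (SE 0.31, adjusted p = 0.0427), which became 0.0825 to 0.262 without any 1 of the 4 arrays. The S phase count was 26, 10, 18 and 13 and the mitosis count 21, 7, 12 and 7 without untreated replicate 1, untreated replicate 2, doxorubicin replicate 1 and doxorubicin replicate 2.

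Replication genes are classic targets of E2F transcription factors. The letters TTTGGCGC, TTTCCCGC, TTTCGCGC and TTTGCCGC, the E2F site, were searched on both strands in the 250 bases before each gene's start in RefSeq promoter windows of build GRCm38.p6, which existed for 9624 of the tested genes and for 34 of the 40 S phase genes. A match was found in 8 of these 34 windows, in 6 of the 22 windows of members that fell, and in 1.91% of all 27025 windows (3.46% of those of tested genes, each gene's first listed window). The 3 members with a match whose levels fell furthest, chosen after their values were seen, are shown to let the shared letters be compared, as 80 bases in the direction of transcription with the matched letters in capitals. The stretches lie at chr8:75109320-75109399 (plus strand) for Mcm5, chr5:138172005-138172084 (minus strand) for Mcm7, another helicase subunit, and chr11:98907977-98908056 (plus strand) for Cdc6, a loader of the helicase.
Mcm5: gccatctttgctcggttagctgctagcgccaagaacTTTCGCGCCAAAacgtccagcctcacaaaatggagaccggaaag
Mcm7: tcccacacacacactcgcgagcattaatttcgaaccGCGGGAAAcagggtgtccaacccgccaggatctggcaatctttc
Cdc6: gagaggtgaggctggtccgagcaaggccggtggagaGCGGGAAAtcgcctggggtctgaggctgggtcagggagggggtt
The Mcm5 stretch holds 2 overlapping matches, 1 on each strand, and the others hold 1 each on the opposite strand. Mcm7 fell by 1.70 and Cdc6 fell by 1.66 on the log2 scale. Without untreated replicate 2 the adjusted p was 0.0614 for Mcm7 and 0.119 for Cdc6, without doxorubicin replicate 1 it was 0.0574 for Mcm7, and without doxorubicin replicate 2 it was 0.0704 for Cdc6. A match describes these letters and shows no binding.

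DNA repair genes were also lower, 13 of 39, with a median of -0.48. H2ax, the histone variant that is phosphorylated at breaks, measured 10.42 and 11.28 untreated and 9.18 and 9.48 with the drug, and fell by 1.52 (SE 0.34). Rpa2 and Rpa1, which coat single-stranded DNA, fell by 1.32 (SE 0.33) and 1.30 (SE 0.22). The other Rpa1 probe set gave -0.66, short of the threshold. Of these 3 genes, only Rpa1 stayed past the threshold in every fit with 1 of the 4 arrays left out. When untreated replicate 2 was left out, H2ax had an adjusted p of 0.121 and Rpa2 0.0997. With doxorubicin replicate 1 left out, H2ax had 0.0849 and Rpa2 0.102, and without doxorubicin replicate 2 Rpa2 had 0.0675. The list then counted 11 (untreated replicate 1 left out), 3 (untreated replicate 2) and 4 (either doxorubicin array) members.

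Genes of ribosome biogenesis fell in 17 of 32 members, with a median of -0.71. They included Rrp9, a protein that processes ribosomal RNA, at -1.41 ± 0.31, and the RNA polymerase I subunits Polr1b at -1.37 ± 0.30 and Polr1a at -1.35 ± 0.43. Polr1b measured 9.30 and 9.65 untreated and 8.0 and 8.20 after doxorubicin, without overlap. Genes of the ribosomal proteins themselves had a median of -0.08, and 2 of 24 fell (8.33%, against 9.27% of all genes), Rpl14 and Rps14. The ribosome biogenesis count fell to 13 without untreated replicate 1, to 1 without untreated replicate 2 and to 4 without doxorubicin replicate 2. Without doxorubicin replicate 1 limma called none of the 32, against 24 with an unadjusted p below 0.05 when all arrays were used, and with no filter on low values it called 11. Rrp9, Polr1b and Polr1a had adjusted p of 0.0676, 0.0832 and 0.405 without untreated replicate 2 and 0.0843, 0.0734 and 0.2 without doxorubicin replicate 1, and Polr1a 0.128 without doxorubicin replicate 2. Other probe sets of Polr1a gave -0.30 and -1.20, short of the threshold.

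**Figure D2:**
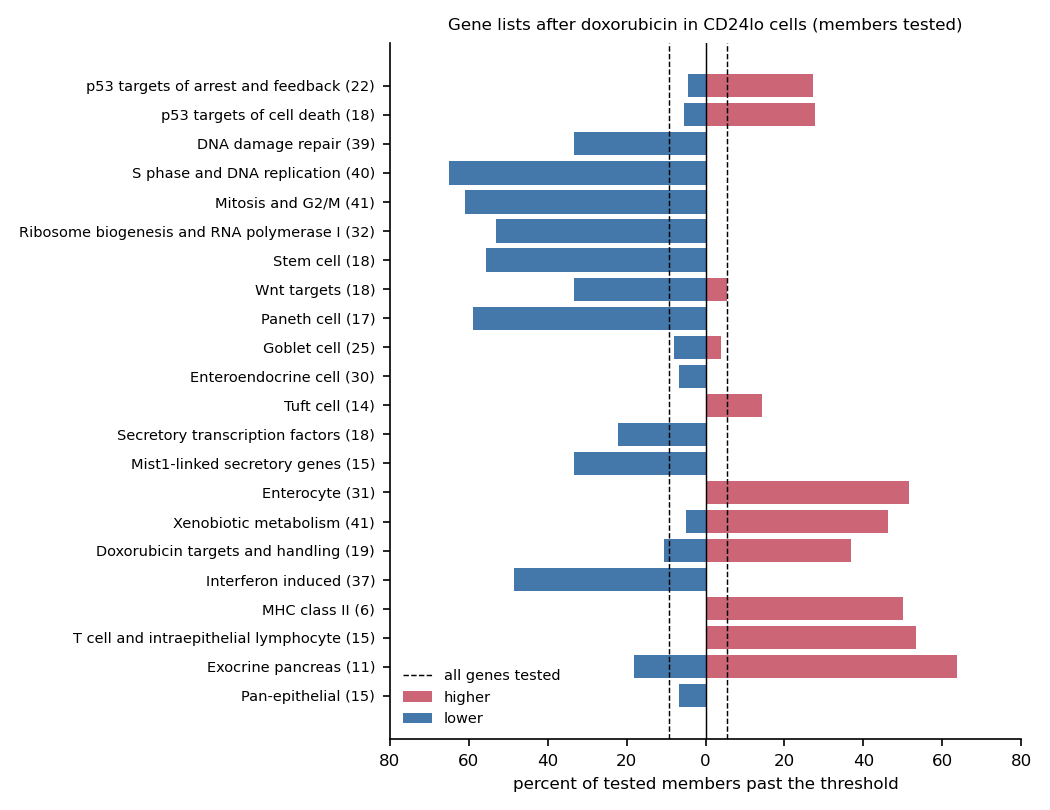
Bars give the percent of tested members of 22 gene lists that fell (blue, to the left) or rose (red, to the right) after doxorubicin in CD24lo cells, with the number of tested members in parentheses; dashed lines mark the 9.27% and 5.47% of all genes. S phase genes (26 of 40) and Paneth cell genes (10 of 17) lie far to the left, and enterocyte (16 of 31) and T cell genes (8 of 15) to the right.

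Targets of p53 rose in part. Of 22 targets of arrest and feedback 6 rose and 1 fell (median 0.19), and of 18 targets of cell death 5 rose and 1 fell (median 0.28). Ephx1, an epoxide hydrolase of detoxification that p53 induces, measured 8.19 and 7.93 untreated and 11.23 and 11.42 after doxorubicin, and rose by 3.26 ± 0.35 (adjusted p = 6.25e-05). Phlda3, an inhibitor of AKT, measured 6.02 and 5.20 untreated and 8.52 and 8.50 with the drug, and rose by 2.90 ± 0.44 (adjusted p = 0.00114). Ccng1, the cyclin G1 gene, measured 12.17 and 11.96 untreated and 13.17 and 13.24 after doxorubicin, and rose by 1.14 ± 0.21. For these genes both doxorubicin arrays lay above both untreated arrays, and each call held without any 1 of the 4 arrays. Eda2r, a receptor of the TNF receptor family, rose by 3.16 ± 0.62, Psrc1, a spindle protein, by 1.67 ± 0.37 and the kinase gene Plk2 by 1.49 ± 0.35. Dglucy rose by 1.71 ± 0.46 and Pmaip1, the death gene Noxa, by 1.38 ± 0.42.

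Cdkn1a, the p21 gene that holds the cell cycle for p53, measured 12.08 and 12.48 untreated and 12.41 and 12.63 with doxorubicin. These ranges overlap, and the difference of 0.24 ± 0.29 had an adjusted p of 0.602. Ccnd1, the gene of cyclin D1, was the member of the arrest list that fell, by 0.95 on the log2 scale, and Bid, a death gene, the member of the other list, at -0.80. Ccnd1 had an adjusted p of 0.0565 without untreated replicate 2, and Bid missed the threshold without any 1 of the 4 arrays (0.0691 to 0.154). Several p53 calls rested on single arrays. Eda2r had an adjusted p of 0.0657, Dglucy 0.223 and Pmaip1 0.355 without untreated replicate 2. Psrc1 had 0.0696 and Plk2 0.0916 without untreated replicate 1. With doxorubicin replicate 1 left out, Psrc1 had 0.0503, Plk2 0.0889, Dglucy 0.112 and Pmaip1 0.16, and without doxorubicin replicate 2 they had 0.0619, 0.057, 0.1 and 0.138. The cell death list had 1 member that rose without untreated replicate 2 and 2 without either doxorubicin array.

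**Figure D3:**
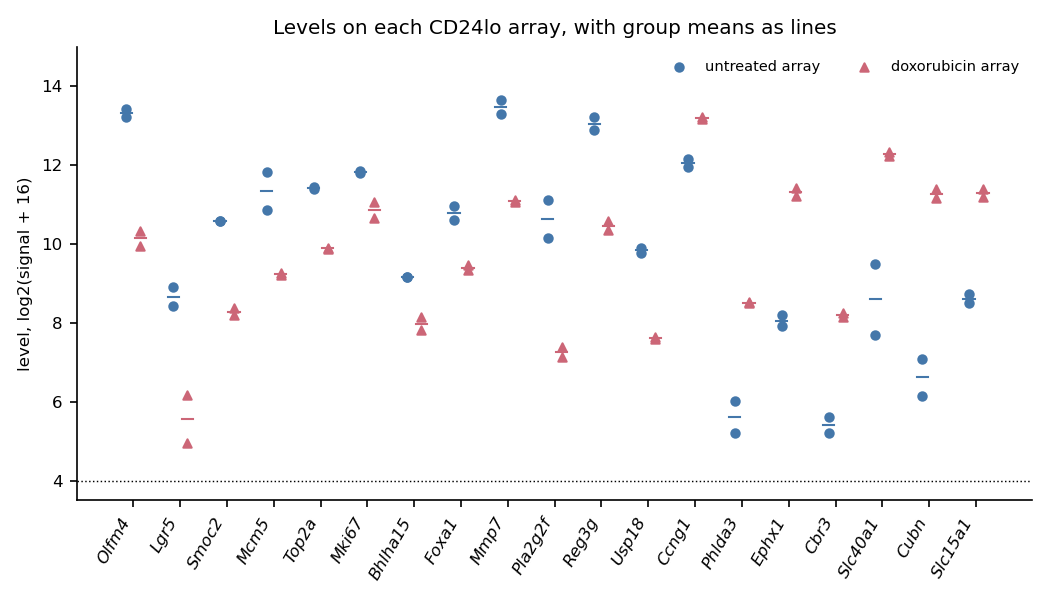
Levels of 19 genes in log2(signal + 16) on each CD24lo array, with untreated arrays as blue circles, doxorubicin arrays as red triangles, short lines at the group means and a dotted line at the floor of 4. The pairs of arrays do not overlap for any gene shown, as for every gene called. Olfm4 to Usp18 lie lower after doxorubicin and Ccng1 to Slc15a1 higher.

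The targets of doxorubicin and the genes that handle it were followed one by one. Top2a, the topoisomerase of dividing cells that the drug traps, measured 11.40 and 11.45 untreated and 9.90 and 9.89 after doxorubicin, and fell by 1.53 (SE 0.27, adjusted p = 0.00276). Its relative Top2b, which is also made in resting cells, differed by -0.25 ± 0.19, and Top1 by -0.16 ± 0.21, both short of the threshold. Their other probe sets gave -0.51 for Top2a (adjusted p = 0.16), 0.43 and 0.23 for Top2b and 0.07 and 0.06 for Top1, all short of the threshold. Cbr3, a carbonyl reductase of the enzyme family that reduces anthracyclines such as doxorubicin, measured 5.22 and 5.62 untreated and 8.25 and 8.16 with the drug, and rose by 2.78 ± 0.40 (adjusted p = 0.000836). The related Cbr1 differed by 0.99 ± 0.42 (adjusted p = 0.117). Among reductases of the aldo-keto family Akr1c13 rose by 0.82 ± 0.25, and Akr1a1 and Akr7a5 differed by 0.11 each. Aldh1a1, an aldehyde dehydrogenase, rose by 2.46 ± 0.73 and Cyp2d22, a cytochrome P450, by 1.83 ± 0.50. The other Cyp2d22 probe set gave 1.32, short of the threshold.

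Of the efflux pumps that carry drugs out of cells, Abcc2 rose by 1.58 ± 0.39 and Abcb1a, a P-glycoprotein gene, by 1.14 ± 0.32. The second P-glycoprotein gene Abcb1b measured 4.69 and 4.86 untreated and 6.04 and 6.02 with the drug, a difference of 1.26 ± 0.51 that missed the threshold (adjusted p = 0.101). Abcg2 differed by 0.30 ± 0.25, Abcc3 by 0.16 ± 0.24 and Abcc1 by -0.37 ± 0.27; another Abcc1 probe set passed at -1.15. Enzymes that pass electrons and can form oxygen radicals were divided. Xdh, xanthine dehydrogenase, rose by 0.93 ± 0.26, Nqo1 differed by 0.37 ± 0.42, and Cyba, a subunit of NADPH oxidases, fell by 1.85 (SE 0.29), from 11.03 and 11.42 to 9.35 and 9.40. In all 7 of 19 genes of this list rose and 2 fell. Without untreated replicate 2, doxorubicin replicate 1 or doxorubicin replicate 2 only Cbr3 of the 7 rose. Adjusted p values without untreated replicate 2 were 0.254 for Aldh1a1, 0.247 for Cyp2d22, 0.142 for Abcc2, 0.282 for Abcb1a, 0.239 for Xdh and 0.276 for Akr1c13. The values without doxorubicin replicate 1 were 0.158, 0.11, 0.0844, 0.116, 0.104 and 0.147, and without doxorubicin replicate 2 they were 0.117, 0.114, 0.0722, 0.115, 0.117 and 0.15.

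Iron binds doxorubicin and takes part in its oxidative chemistry. Slc40a1, ferroportin, the exporter that passes iron out of cells, measured 9.51 and 7.69 on the untreated arrays and 12.24 and 12.35 on the doxorubicin arrays. The untreated arrays differed from each other by more than 1 unit and both lay below the drug arrays, and Slc40a1 rose by 3.69 ± 0.66 (adjusted p = 0.00296). Heph, the oxidase that works with it, rose by 0.98 ± 0.31 (adjusted p = 0.0429), which became 0.363 without untreated replicate 2, 0.197 without doxorubicin replicate 1 and 0.125 without doxorubicin replicate 2. These were 2 of 11 iron genes tested (18.2% rose, against 5.47% of all genes). Of 22 genes of oxidative defence 3 rose (13.6%) and 1 fell (4.55%), against 5.47% and 9.27% of all genes. Catalase, Cat, rose by 1.52 ± 0.31 and malic enzyme, Me1, by 1.38 ± 0.26. Gclm, a subunit of the enzyme that makes glutathione precursors, rose by 0.88 ± 0.20. Taldo1, of the pentose phosphate pathway, fell by 0.46 (SE 0.15), and missed the threshold without any 1 of the arrays (adjusted p = 0.111 to 0.225). In the fit without untreated replicate 2, limma called none of the 22, with Cat at an adjusted p of 0.075, Me1 at 0.06 and Gclm at 0.11, against 9 of 22 with an unadjusted p below 0.05 with all arrays. Cat had 0.0731 and Gclm 0.0694 without doxorubicin replicate 1, and Gclm 0.0621 without doxorubicin replicate 2.

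Paneth cell genes were lower in 10 of 17 tested members, with a median of -1.17. Pla2g2f, a secreted phospholipase, measured 10.15 and 11.11 untreated and 7.13 and 7.4 after doxorubicin, and fell by 3.37 (SE 0.43, adjusted p = 0.000281). Its relative Pla2g2a, an antibacterial enzyme of Paneth granules, measured 10.76 and 11.07 untreated and 8.24 and 8.19 with the drug, and fell by 2.70 (SE 0.42). Mmp7 measured 13.31 and 13.66 untreated and 11.07 and 11.12 after doxorubicin. For each of these genes the 4 arrays fell into separate ranges. The pancreatic lipase relative Pnliprp2 fell by 2.26 (SE 0.35), and it and Clps, at -1.17, stand in the exocrine pancreas list too. Clps had an adjusted p of 0.0688 without untreated replicate 1, 0.0602 without doxorubicin replicate 1 and 0.0736 without doxorubicin replicate 2. The defensin gene Defa39, read by a probe set that can match related defensins, was outside the list and fell by 2.51 (SE 0.27), from 13.55 and 13.42 to 10.94 and 11. Lyz1, the Paneth lysozyme, measured 14.36 and 14.60 untreated and 14.10 and 14.22 with the drug, near the top of the scale, a difference of -0.32 ± 0.28 (adjusted p = 0.462). The Paneth count stayed between 7 and 9 without any 1 of the 4 arrays, and the summed signal of the whole list was 104934 and 116092 untreated and 66811 and 72858 after doxorubicin.

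Of 18 transcription factors of secretory cells 4 fell, with a median of -0.26. Bhlha15, the gene behind the Mist1 label, measured 9.17 and 9.18 untreated and 8.15 and 7.83 with the drug, and fell by 1.19 (SE 0.26, adjusted p = 0.00829). The other Bhlha15 probe set gave -0.47 with an adjusted p of 0.39. Foxa1, a factor of endodermal and secretory cells, fell by 1.39 (SE 0.20), from 10.61 and 10.97 to 9.46 and 9.35, and its call held without any 1 of the arrays. Creb3l4 fell by 1.03 (SE 0.27) and Spdef, a factor of goblet and Paneth cells, by 0.88 (SE 0.26). Atoh1, which starts the secretory programme, measured 12.61 and 12.63 untreated and 12.86 and 12.84 with the drug, a difference of 0.23 ± 0.20 that missed the threshold. Among 15 secretory genes linked to Mist1 5 fell, with a median of -0.72, including Copz2, a vesicle coat subunit, at -1.44 ± 0.25, Rab3d, a GTPase of secretory granules, at -0.93 ± 0.20, and Pdia4, a folding enzyme, at -0.79 ± 0.22. The adjusted p without untreated replicate 2 was 0.0614 for Bhlha15, 0.148 for Creb3l4, 0.301 for Spdef, 0.0831 for Rab3d and 0.207 for Pdia4. Creb3l4, without doxorubicin replicate 1, had 0.067, Spdef 0.171, Rab3d 0.0541 and Pdia4 0.222, and without doxorubicin replicate 2 Bhlha15 had 0.079, Creb3l4 0.12 and Spdef 0.102. The list of factors then counted 1 to 4 members and the Mist1-linked list 1 to 5. Other Rab3d probe sets gave -0.58, -0.21 and 0.07, short of the threshold.

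Most goblet, enteroendocrine and tuft cell genes did not pass, as was so for 10107 of all 11854 genes. The share that fell was 8.0% of goblet and 6.67% of enteroendocrine genes, against 9.27% of all genes. The list medians were -0.10 (goblet), -0.45 (enteroendocrine) and 0.05 (tuft), against -0.06 over all genes. Of the 30 enteroendocrine genes 25 had a difference below 0, against 6452 of all 11854. Muc2, the main mucin, measured 14.37 and 14.72 untreated and 14.53 and 14.73 after doxorubicin, overlapping ranges near the top of the scale, with a difference of 0.08 ± 0.26. Of 25 goblet genes 2 fell, Creb3l4 and Spdef, and Scin, an actin-severing protein, rose by 0.71 ± 0.17, a call lost without untreated replicate 2 (adjusted p = 0.121), doxorubicin replicate 1 (0.0584) or doxorubicin replicate 2 (0.106). Of 30 enteroendocrine genes 2 fell, with all arrays and without any 1 of them. The neurotensin gene Nts measured 10.42 and 10.18 untreated and 7.63 and 7.71 with the drug, and fell by 2.63 (SE 0.47). The secretin gene Sct fell by 1.56 (SE 0.25), from 9.04 and 9.29 to 7.66 and 7.56, while Chga, a granin of most enteroendocrine cells, differed by -0.30 ± 0.65 and Cck by -1.20 ± 0.49. The tuft cell gene Dclk1 was dim and overlapped, at 5.32 and 5.29 against 5.03 and 5.66. Of 14 tuft genes, Ly6g6d at 1.70 ± 0.44 and Il17rb at 0.99 ± 0.29 rose, and both lost the call without doxorubicin replicate 1 (adjusted p = 0.181 and 0.154). Ly6g6d also lost it without untreated replicate 2 (0.192), and Il17rb without untreated replicate 1 (0.252) or doxorubicin replicate 2 (0.121). Of 32 genes of the unfolded protein response 4 fell (12.5%) and 1 rose (3.12%), near the 9.27% and 5.47% of all genes. Chac1, a glutathione-degrading enzyme, led them at -1.26 ± 0.40, with Asns, asparagine synthetase, at -1.14 ± 0.18. Chac1 missed the threshold without any 1 of the arrays (adjusted p = 0.0746 to 0.23), and quantile normalization gave 7 lower members.

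Genes of absorptive enterocytes were higher. Of 31 tested members 16 rose, with a median of 1.43. Cubn led, followed by Slc2a2, the glucose transporter GLUT2, which measured 10.04 and 8.83 untreated and 12.79 and 12.95 after doxorubicin, and rose by 3.43 ± 0.79 (adjusted p = 0.0102). Slc15a1, the peptide transporter PEPT1, measured 8.72 and 8.50 untreated and 11.40 and 11.19 with the drug, and rose by 2.68 ± 0.48. Slc2a5, the fructose transporter GLUT5, measured 8.98 and 7.64 untreated and 10.97 and 10.76 with the drug, and rose by 2.55 ± 0.49. The doxorubicin arrays were higher than the untreated arrays for each of these genes, and for Slc2a2 and Slc2a5 untreated replicate 2 was the lowest array. The summed signal of the enterocyte list was 130229 and 104632 on the untreated arrays and 241519 and 268992 on the doxorubicin arrays, while that of the pan-epithelial list was 104108 and 117740 against 100751 and 111738. With 1 array left out, 14 (without untreated replicate 1), 3 (without untreated replicate 2) and 4 (without either doxorubicin array) members rose, and 27 rose in a fit to the 4 arrays alone. Slc2a2 had an adjusted p of 0.106 without untreated replicate 2, 0.0664 without doxorubicin replicate 1 and 0.0675 without doxorubicin replicate 2, and Slc2a5 had 0.0681 without untreated replicate 2.

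Enzymes that metabolise foreign compounds rose in 19 of 41 members and fell in 2, with a median of 1.27. Cyp3a11, the main drug-metabolising P450 of mouse gut and liver, measured 9.84 and 8.47 untreated and 13.05 and 12.82 after doxorubicin, and rose by 3.78 ± 0.45 (adjusted p = 0.000149). Cyp3a25 rose by 3.09 ± 0.69, Cyp2c55 by 2.96 ± 0.79 and the glucuronosyltransferase gene Ugt2b5 by 2.93 ± 0.74. Only Cyp3a11 of these 4 kept its call in every fit with 1 array left out. Without untreated replicate 2 the adjusted p was 0.115 for Cyp3a25, 0.207 for Cyp2c55 and 0.17 for Ugt2b5. Without doxorubicin replicate 1 it was 0.0704, 0.111 and 0.102, and without doxorubicin replicate 2 it was 0.0945 for Cyp2c55 and 0.0762 for Ugt2b5. The count of members that rose was 20 without untreated replicate 1, 2 without untreated replicate 2 or doxorubicin replicate 1, and 3 without doxorubicin replicate 2. These enzymes are abundant in enterocytes, whose genes moved with them, and the part of enterocyte number in the result was not tested.

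Interferon-induced genes were lower in 18 of 37 tested members, with a median of -1.01. Mx2, an antiviral GTPase, measured 8.29 and 8.99 untreated and 5.10 and 4.85 after doxorubicin, and fell by 3.67 (SE 0.76, adjusted p = 0.00598). Usp18, a brake on interferon signalling that is itself induced, measured 9.91 and 9.78 untreated and 7.61 and 7.65 with the drug, and fell by 2.21 (SE 0.35, adjusted p = 0.0014). The arrays with doxorubicin were the lower ones for both. The GTPases Iigp1 and Gbp6 fell by 2.09 (SE 0.66) and 1.99 (SE 0.50). Usp18 held in every fit, while Mx2 had an adjusted p of 0.065 without untreated replicate 2. Iigp1 missed the threshold without any 1 of the arrays (0.0622 to 0.226), as did Gbp6 (0.0601 to 0.0983). The list count was 6, 9, 5 and 5 without untreated replicate 1, untreated replicate 2, doxorubicin replicate 1 and doxorubicin replicate 2.

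Interferon acts through factors that bind the interferon-stimulated response element, whose core is GAAANNGAAA, with N for any base. The core was searched on both strands in the 250 bases before the start, where windows existed for 26 of the 37 members. It was found in 12 of these 26 windows, in 8 of the 11 windows of members that fell, in 3.04% of all windows and in 2.6% of those of tested genes. The 5 members that fell furthest among those with a match were singled out after their values were seen and are shown as 80 bases with the core in capitals. They are Gbp3, a guanylate-binding protein (chr3:142559964-142560043, plus strand), Oas1a and Oas3, enzymes that sense double-stranded RNA (chr5:120907526-120907605 and chr5:120777690-120777769, minus strand), Rsad2, the antiviral protein viperin (chr12:26456528-26456607, minus strand), and the GTPase gene Irgm1 (chr11:48871421-48871500, minus strand).
Gbp3: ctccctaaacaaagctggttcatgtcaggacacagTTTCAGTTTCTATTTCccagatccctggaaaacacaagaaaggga
Oas1a: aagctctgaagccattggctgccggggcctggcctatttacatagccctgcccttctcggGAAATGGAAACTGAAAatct
Oas3: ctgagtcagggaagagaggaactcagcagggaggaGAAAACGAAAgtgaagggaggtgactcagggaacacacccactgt
Rsad2: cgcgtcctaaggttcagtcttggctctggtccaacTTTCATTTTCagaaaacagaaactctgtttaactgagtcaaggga
Irgm1: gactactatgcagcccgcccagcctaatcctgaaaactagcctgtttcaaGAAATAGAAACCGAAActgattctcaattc
Gbp3, Oas1a and Irgm1 hold 2 overlapping cores each, so their capitals run together. The differences were -1.97 for Gbp3, -1.92 for Oas1a, -1.87 for Oas3, -1.63 for Rsad2 and -1.43 for Irgm1. The call of Oas1a held without any 1 of the arrays. Without untreated replicate 1 the adjusted p was 0.172 for Gbp3, 0.217 for Oas3 and 0.0971 for Irgm1. Without doxorubicin replicate 1 it was 0.0918 for Gbp3, 0.17 for Oas3, 0.0678 for Rsad2 and 0.0539 for Irgm1, and without doxorubicin replicate 2 it was 0.146, 0.102, 0.0638 and 0.0959. The letters are a description and show no binding.

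MHC class II genes, whose products show peptides to helper T cells, went the other way. Of 6 tested members 3 rose, with a median of 0.99. H2-Aa measured 9.41 and 10.54 untreated and 11.95 and 12.01 after doxorubicin, and rose by 2.00 ± 0.33 (adjusted p = 0.00193). H2-Eb1 rose by 1.19 ± 0.23, from 10.12 and 10.58 to 11.51 and 11.56, and both calls held without any 1 of the arrays. Ciita, the activator of these genes, rose by 1.49 ± 0.33, with an adjusted p of 0.064 without untreated replicate 1 and 0.102 without doxorubicin replicate 1. Another Ciita probe set gave 0.78, short of the threshold. The 9 MHC class I genes had a median of 0.03, and limma called none of them, with 2 at an unadjusted p below 0.05.

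Secreted defence proteins of the Reg family were split. Reg3g, a lectin that kills Gram-positive bacteria, measured 12.88 and 13.21 untreated and 10.59 and 10.35 with the drug, and fell by 2.58 (SE 0.28, adjusted p = 7.3e-05). Reg1 measured 12.26 and 10.94 untreated and 14.22 and 14.37 with the drug, and rose by 2.70 ± 0.74 (adjusted p = 0.0236). The arrays of each gene formed separate groups in opposite order. The chemokine gene Ccl28 fell by 1.53 (SE 0.17), from 11.29 and 11.32 to 9.79 and 9.76, and the cytokine gene Il18 rose by 1.82 ± 0.52. Reg1 lost its call without untreated replicate 2 (adjusted p = 0.198), doxorubicin replicate 1 (0.109) or doxorubicin replicate 2 (0.109), as did Il18 (0.223, 0.13 and 0.112).

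Genes of other signalling and death pathways changed singly. Notch3, a Notch receptor, measured 6.02 and 6.4 untreated and 8.80 and 8.19 after doxorubicin, and rose by 2.28 ± 0.37. The Notch target Hes1 measured 7.30 and 6.98 untreated and 7.42 and 6.82 with the drug, which overlap. Bambi, a decoy receptor of the BMP and TGF-beta families, fell by 1.92 (SE 0.30), from 9.21 and 8.81 to 7.36 and 6.82, and Bmp7 fell by 1.93 (SE 0.55), a call lost without untreated replicate 2 (adjusted p = 0.271), doxorubicin replicate 1 (0.164) or doxorubicin replicate 2 (0.0864). Scd2, a fatty acid desaturase, fell by 2.31 (SE 0.42). Among 32 apoptosis genes 5 fell (15.6%) and 1 rose (3.12%), against 9.27% and 5.47% of all genes. Apart from Gsdmc2, they included Bcl2, which blocks apoptosis, at -1.32 ± 0.42, and Bcl2l11, the death gene Bim, at 1.18 ± 0.39. Bcl2 missed the threshold without untreated replicate 2 (adjusted p = 0.262) or doxorubicin replicate 2 (0.323), and Bcl2l11 without any 1 of the arrays (0.061 to 0.274). Other Bcl2 probe sets gave -0.13 to -0.37.

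Genes of T cells and intraepithelial lymphocytes, which lie between the epithelial cells, were higher on the doxorubicin arrays. Of 15 tested members 8 rose, with a median of 1.91. The filter could be passed through the 2 doxorubicin arrays alone, so this share can favour rises. The granzyme gene Gzma measured 6.77 and 7.02 untreated and 10.36 and 10.39 after doxorubicin, and rose by 3.48 ± 0.68 (adjusted p = 0.00431). Gzmb measured 6.13 and 4.51 untreated and 8.69 and 8.83 with the drug, and rose by 3.44 ± 0.77. Cd3e, a subunit of the T cell receptor complex, measured 5.66 and 4.54 untreated and 7.97 and 8.33 with the drug, and rose by 3.05 ± 0.62. Klrd1, a receptor of cytotoxic lymphocytes, rose by 2.34 ± 0.45. Over the whole list of 21 genes on the array, the summed signal was 3433 and 5571 untreated and 10446 and 8778 with the drug. Below a level of 7 lay 17 and 13 members untreated against 5 and 6 with the drug. Prf1 and Cd247 make up most of the untreated sums. Prf1 measured 10.92 and 11.42 untreated and 11.88 and 11.33 with the drug, which overlap, and Cd247 9.49 and 9.77 against 9.82 and 9.93. Of the 15 tested members 14 had a difference above 0 and 1, Cd8b1, below. The replicates were not alike in the untreated group, where Ptprc (CD45) was at 6.07 and 8.92. The part of such cells in the interferon, MHC class II and cytokine results was not tested. Gzmb lost its call without untreated replicate 2 (adjusted p = 0.11), doxorubicin replicate 1 (0.0613) or doxorubicin replicate 2 (0.0614), and Cd3e without untreated replicate 2 (0.0716) or doxorubicin replicate 2 (0.0502). The count was 5, 7, 4 and 3 without untreated replicate 1, untreated replicate 2, doxorubicin replicate 1 and doxorubicin replicate 2, and 3 under the stricter filter.

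Genes of the exocrine pancreas, which makes digestive enzymes and lies outside the gut wall, rose in 7 of 11 members and fell in 2. The filter asked for 2 bright arrays, which the doxorubicin arrays alone could supply, so the count can favour rises. Cpb1, a carboxypeptidase, measured 4.27 and 5.33 untreated and 9.02 and 7.23 after doxorubicin, and rose by 3.32 ± 0.64 (adjusted p = 0.00399). The elastase gene Cela2a rose by 3.30 ± 0.66, from 4.49 and 4.77 to 8.61 and 7.24, Ctrb1, chymotrypsinogen, by 2.50 ± 0.67 and Cpa1, another carboxypeptidase, by 2.49 ± 0.64. Doxorubicin replicate 1 was above replicate 2 for each of these 4 genes. Without doxorubicin replicate 1, limma called none of the 11 higher, against 10 of 11 with an unadjusted p below 0.05 in either direction with all arrays, and the adjusted p was 0.071 for Cpb1, 0.0734 for Cela2a, 0.277 for Ctrb1 and 0.213 for Cpa1. Ctrb1 also lost its call without untreated replicate 1 (0.141), and Cpa1 without untreated replicate 1 (0.0632) or 2 (0.0772). The list counted 3 members that rose without either untreated array and 8 without doxorubicin replicate 2, and the stricter filter kept 3 of the 11, none of them higher. The members that fell were Pnliprp2 and Clps, named above with the Paneth genes. The summed signal over the list was 10122 and 7218 untreated and 6584 and 3596 with the drug, of which these genes make up most on the untreated arrays.

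Of 8 myeloid genes 3 fell and 1 rose. Cd14, a receptor for bacterial lipopolysaccharide, measured 6.78 and 7.48 untreated and 4.75 and 4.66 after doxorubicin, and fell by 2.43 (SE 0.33). Lyz2 fell by 1.43 (SE 0.28), with an adjusted p of 0.067 without doxorubicin replicate 2, and the macrophage complement genes C1qa and C1qc lay below 5 on all 4 arrays. The third gene of that complex, C1qb, was not tested because of its low level, and measured 4.56 and 4.34 untreated and 6.07 and 5.65 with the drug, so that both drug-treated arrays were higher. Fcer1g, a signalling subunit of Fc receptors, measured 4.99 and 7.08 untreated and 7.74 and 7.75 with the drug, and rose by 1.72 ± 0.56 (adjusted p = 0.0482). That call was lost without untreated replicate 1 (adjusted p = 0.43), doxorubicin replicate 1 (0.181) or doxorubicin replicate 2 (0.155). Over 19 myeloid genes on the array, the summed signal was 13492 and 10318 untreated and 9559 and 8297 with the drug. Lyz2 and Ctss make up most of this sum. Lyz2, which stands in the Paneth list too, measured 12.76 and 12.32 untreated and 11.42 and 10.80 with the drug. Ctss measured 12.48 and 11.81 untreated and 12.49 on both doxorubicin arrays. The number of myeloid cells was not tested. For B and plasma cells limma called none of 8 genes, with 1 at an unadjusted p below 0.05, and Igha, an immunoglobulin heavy chain gene, measured 13.21 and 14.12 untreated and 12.98 and 12.86 with the drug.

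**Figure D4:**
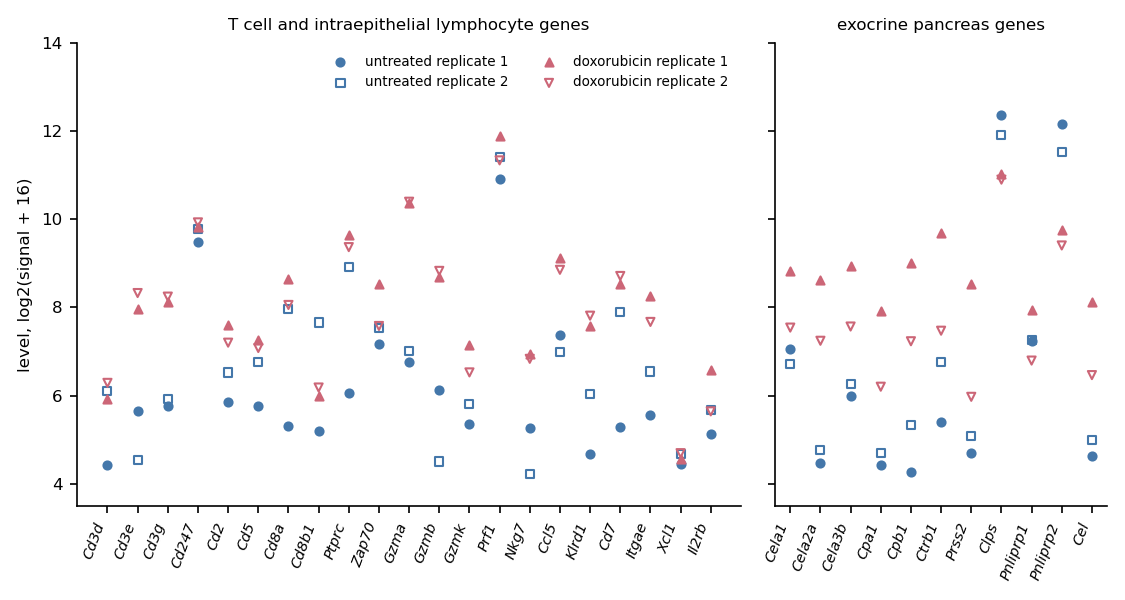
Levels in log2(signal + 16) of 21 T cell and intraepithelial lymphocyte genes (left) and 11 exocrine pancreas genes (right) on each CD24lo array, with untreated arrays in blue and doxorubicin arrays in red, filled for replicate 1 and open for replicate 2. Gzma and Gzmb lie at similar levels on both doxorubicin arrays, while Cpb1, Cela2a and Ctrb1 lie higher on doxorubicin replicate 1.

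CD24hi cells with and without doxorubicin were on other arrays, which may share mice with the CD24lo arrays. They gave 142 genes past the threshold, 95 higher (0.801%) and 47 lower (0.396%). Of the 648 genes that rose in CD24lo cells, 571 had a difference above 0 in CD24hi cells and 56 rose there too, which is 56 of the 95. Of the 1099 that fell, 915 had a difference below 0 and 22 fell, of 47. Over all genes the median difference in CD24hi cells was -0.0021, so about as many lay above 0 as below. Gsdmc2 differed by -3.13 ± 0.38 in CD24hi cells, Reg3g by -2.14 ± 0.28, Ephx1 by 2.79 ± 0.35, Phlda3 by 3.37 ± 0.44, Cyp3a11 by 3.70 ± 0.45, Ces1g by 3.64 ± 0.40 and Cubn by 3.30 ± 0.42. Each of these 7 passed in both fractions, also without any 1 array. Side by side, S phase genes had a median of -1.22 in CD24lo and -0.23 in CD24hi cells, G2/M genes -0.96 and 0.30, and ribosome biogenesis genes -0.71 and 0.02. Paneth genes had -1.17 and -0.31, enterocyte genes 1.43 and 1.61 and T cell genes 1.91 and 1.40.

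The difference between the effects was tested gene by gene, and 4 genes passed (0.0337%), all with the more negative effect in CD24lo cells. Clca1, a protein secreted with mucus, differed by 0.02 ± 0.18 in CD24lo and by 1.91 ± 0.18 in CD24hi cells, a difference of -1.89 (adjusted p = 0.012). Mmp7 differed by -2.39 in CD24lo and -0.07 in CD24hi cells (-2.32, adjusted p = 0.0337), Defa39 by -2.51 and -0.27 (-2.24, adjusted p = 0.0497), and Stil, a protein of centriole duplication, by -1.73 and 0.40 (-2.13, adjusted p = 0.0405). Each call was lost without at least 6 of the 8 arrays in turn, with adjusted p of up to 0.177 for Clca1, 0.267 for Mmp7 and Stil and 0.302 for Defa39. Another Clca1 probe set rose in CD24lo cells, by 0.95. With the replicate number as a block the adjusted p was 0.0231 for Clca1, the one call that remained, 0.0581 for Defa39 and Mmp7 and 0.0589 for Stil. Of all 11854 genes, 1252 had an unadjusted p below 0.05 for this difference. The median of the per-gene differences between the effects was -0.98 for S phase genes, -1.32 for G2/M genes and -0.06 over all genes, and the difference between list medians was not tested.

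**Figure D5:**
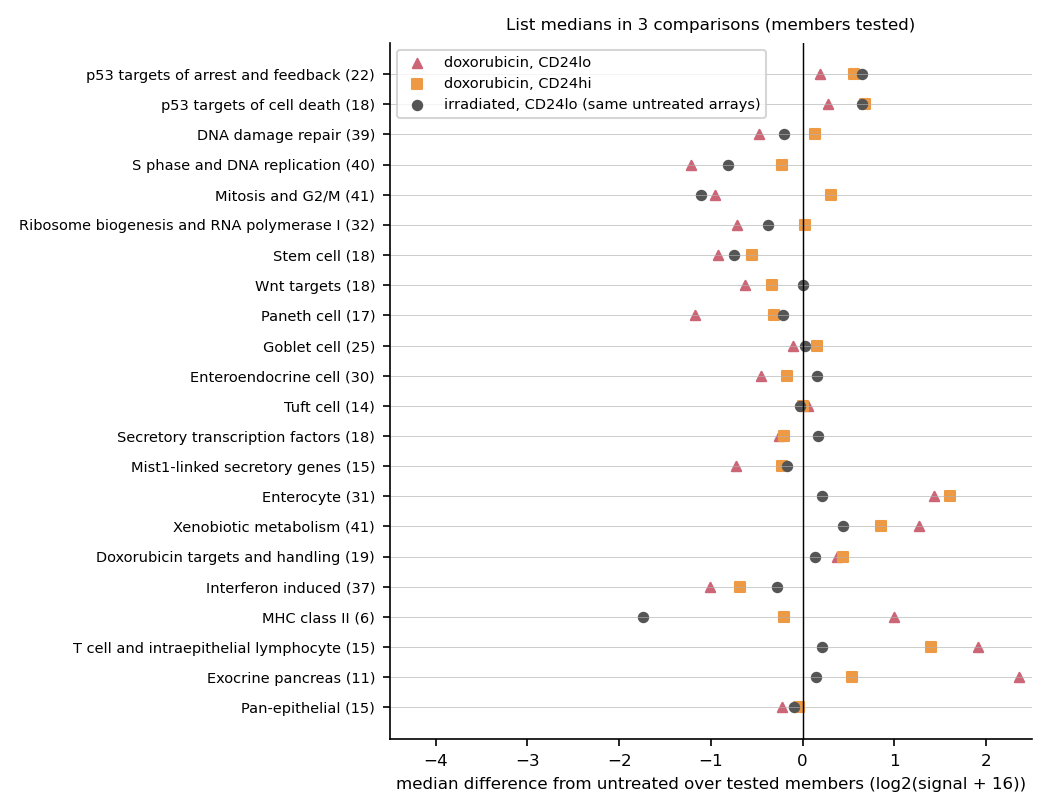
Median difference from untreated over the tested members of 22 gene lists, in log2(signal + 16), for doxorubicin in CD24lo cells (red triangles), doxorubicin in CD24hi cells (orange squares) and irradiation in CD24lo cells (grey circles, with the same untreated arrays as doxorubicin). Cell cycle lists lie below 0 in both CD24lo comparisons, enterocyte genes lie at 1.43 and 1.61 in the doxorubicin comparisons, and MHC class II genes lie at 0.99 after doxorubicin and -1.74 after irradiation.

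Irradiated CD24lo cells were set against the same 2 untreated arrays, so these values share their controls with those above and are given side by side. Irradiation gave 477 genes, 187 higher (1.58%) and 290 lower (2.45%). Gsdmc2 differed by -6.23 after irradiation and -5.91 after doxorubicin, Olfm4 by -3.71 and -3.18, Smoc2 by -1.68 and -2.31, Mbl2 by 4.88 and 4.05, Phlda3 by 4.75 and 2.90 and Ephx1 by 4.27 and 3.26. Cdkn1a differed by 1.43 and 0.24. For lists, the arrest targets of p53 had a median of 0.65 after irradiation and 0.19 after doxorubicin, G2/M genes -1.10 and -0.96, enterocyte genes 0.21 and 1.43, Paneth genes -0.21 and -1.17 and T cell genes 0.21 and 1.91.

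Doxorubicin and irradiated arrays were also compared directly, and 388 genes passed, 157 higher with doxorubicin (1.32%) and 231 lower (1.95%). Centring on the 75th percentile gave 183 higher and 174 lower. All 6 tested MHC class II genes were higher with doxorubicin, and 5 of 6 without any 1 of the 4 arrays. H2-Aa measured 8.19 and 8.22 on the irradiated and 11.95 and 12.01 on the doxorubicin arrays, 3.77 higher (adjusted p = 1.89e-05), with the untreated arrays between them. Cubn measured 8.11 and 7.15 on the irradiated arrays and was 3.66 higher with doxorubicin (adjusted p = 0.000328). Gimap4, a GTPase of lymphocytes, was 3.09 higher. Of 17 Paneth genes 6 were lower with doxorubicin than with irradiation. Mmp7 measured 13.29 and 13.20 on the irradiated arrays, close to the untreated ones, and differed by -2.16 (adjusted p = 0.000328), and Cd14 differed by -2.47. Each of these genes kept its call without any 1 of the 4 arrays. Slc40a1 was 3.41 higher with doxorubicin (adjusted p = 0.0127), which became 0.0521 to 0.108 without any 1 array. The Paneth count was 3 without either doxorubicin array, 5 without irradiated replicate 1 and 4 without irradiated replicate 2. In the arrest list of p53 7 of 22 targets were lower with doxorubicin, with Phlda3 at an adjusted p of 0.0302 and Cdkn1a at 0.0331. Without any 1 of the arrays Phlda3 had 0.122 to 0.179 and Cdkn1a 0.0695 to 0.244, and at most 1 of the 22 was called. Over all genes, 39 were called without doxorubicin replicate 1, 39 without doxorubicin replicate 2, 36 without irradiated replicate 1 and 83 without irradiated replicate 2.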

How the data were processed

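Small intestinal cells were profiled on Affymetrix mouse arrays. The deposited values are linear signal intensities of 45101 probe sets, which the authors computed by MAS5, as the submitters' processing notes name it; its version and the array scaling are not given in the sources used here. Every array had a trimmed mean (2% off each end) of 500, so RNA amounts per cell are not kept. Values were taken as log2(signal + 16). Of the probe sets 34958 carry 1 gene symbol, 932 several and 9211 none in the platform annotation. A probe set was kept if it exceeded its array's median on at least 2 of 20 sorted arrays. The brightest kept probe set on average stood for its gene, which left 11854 genes. Since a group has 2 arrays, a gene could be tested because it was bright in 1 group alone. Probe sets marked _s_at or _x_at, which can match several transcripts, read 1202 genes, among them Defa39, Pnliprp2, H2-Aa, Lyz1, Cubn, Abcc2 and Notch3. No detection calls were used.

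A group-means model was fitted to the 20 sorted arrays (10 groups of 2, 10 residual degrees of freedom) in R 4.3.3 by limma 3.58.1, using a variance trend and Benjamini-Hochberg adjustment. The script was checked on simulated data. Members and gene lists were chosen with earlier results of these data known. Named genes were fixed markers and drug-handling genes, up to 4 called members of each list by size, and the 15 highest and 15 lowest changes without overlap (8 for the other comparisons). Alternatives were other pseudocounts, scalings, filters, probe set rules, moderation and sample sets, the replicate number as a block, and leaving out each array. Deviations of same-numbered arrays correlated at r = -0.096 between doxorubicin and untreated CD24lo cells and at -0.41 to 0.385 over all pairs of groups. Since they did not deviate together in every pair, the numbers were not taken as pairs. Between CD24lo and CD24hi cells the value was 0.344 untreated and -0.097 with doxorubicin. A pairing of the fractions within a treatment was not tested, and the block, which is shared by all groups, does not model it.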

Additional observations from a re-analysis of the deposited data

Results flagged for a closer look

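In 4 genes the effect of doxorubicin differed between CD24lo and CD24hi cells by a test of the difference itself (interaction in limma). The CD24lo effect minus the CD24hi effect was -1.89 for Clca1, -2.24 for Defa39, -2.32 for Mmp7 and -2.13 for Stil, in log2(signal + 16). With the replicate number as a block only Clca1 of the 4 stayed past the threshold (adjusted p = 0.0231). Their other adjusted p values and their loss without single arrays are given with the comparison of the fractions.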

How the results depend on the processing

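No named gene past the threshold for doxorubicin in CD24lo cells changed sign in any of 16 settings, but in many of these it could not. The moderation, block and sample-set fits leave each difference as it is. No called gene overlapped between the groups, so leaving out 1 array keeps the sign. Many of these genes lost their call without at least 1 of the 4 arrays. The count of genes for doxorubicin in CD24lo cells was 1471 to 1920 under the other alternatives and 394 to 1440 without 1 array. Using no filter moved the median of all genes from -0.06 to 0.11. For doxorubicin in CD24hi cells the count was 406 in a fit to those arrays alone and 26 to 82 without 1 array. The difference between the fractions gave 10 genes with a pseudocount of 1, 10 with 64 and 10 with the mean of the kept probe sets, 9 with the stricter filter and 9 with robust moderation, 7 after quantile normalization, 1 with the 75th percentile, 1 with no filter and 64 in a fit to those arrays alone. Without 1 array it gave 0 to 8, where the limma fits with 0 had 840 to 1036 genes at an unadjusted p below 0.05. Irradiation gave 221 genes in a fit to its arrays alone and 112 to 322 without 1 array. Doxorubicin against irradiation gave 1707 in a fit to its arrays alone, 187 in a fit to the 10 CD24lo arrays and 36 to 83 without 1 array. With the replicate block the counts were 1641 for doxorubicin in CD24lo cells and 1 for the difference between the fractions. In CD24hi cells, where same-numbered arrays had r = -0.159, the block gave 139 and the crossed pairing, chosen after seeing the data, 140. What caused these shifts was not tested. Genes near the floor of 4 have understated differences.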
